A study of Canis lupus familiaris with 15 samples.

Results

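The zinc finger members described here are 56 genes of the dog corpus luteum (CL), the ovarian gland that makes progesterone (P4). They were selected by the study's lists of differentially expressed genes (DEG): an Ensembl identifier became a member if 1 of those 4 lists gave it a symbol starting with ZNF, ZBTB, ZFP, ZFHX, ZEB, ZIC, ZKSCAN, ZSCAN or KLF, with ZBTB16 left out. Of the members, 45 carry a ZNF symbol, 3 a ZBTB, 3 a ZSCAN, 3 a KLF and 2 a ZFP symbol. They are 56 of 23630 genes in the count table and of 3261 identifiers in the lists, and all 56 passed the filter on low counts, as 14922 genes did. The mid-gestation over antigestagen list held 428 identifiers, at an unadjusted p-value below 0.01 in the study. Most of them failed the study's adjusted threshold, and which of its members passed it was not read. Because the lists named only genes that differed between groups, dog zinc finger genes without a difference are missing by construction. In the RefSeq annotation of the assembly UU_Cfam_GSD_1.0, 378 protein-coding genes carry such a symbol, and 53 of the members are among them.

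Messenger RNA was measured by RNA-Seq in 1 library per dog from 15 cross-breed bitches. The mid-gestation group held 5 pregnant dogs at days 35 to 40 after ovulation, and the antigestagen group held 5 pregnant dogs at days 40 to 45 that had received the progesterone receptor blocker aglepristone (10 mg/kg, 2 doses 24 h apart). The luteolysis group held 3 pregnant dogs whose P4, measured every 6 h from day 58, had fallen before birth in 3 consecutive samples, and the luteal regression group held 2 non-pregnant dogs at day 65. The labels name no strain, allele or clone, the whole CL was extracted, and the antigestagen dogs were both treated and further into pregnancy than the mid-gestation dogs. In such whole tissue, fewer cells of a type and less RNA per cell cannot be told apart.

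Most genes with these names encode proteins that grip DNA with rows of zinc fingers, small loops held by a zinc ion between cysteines and histidines. Many ZNF proteins carry a KRAB domain, which recruits the corepressor TRIM28 and silences chromatin. ZBTB proteins pair through a BTB domain, ZSCAN proteins through a SCAN domain, and KLF proteins bind GC-rich promoters and switch metabolic and growth genes. The prefix does not make every member a transcription factor: ZFP36L2 binds AU-rich messenger RNAs and speeds their decay, ZNF385A binds RNA, ZNF185 is a LIM-domain protein of the actin cytoskeleton, and ZNF593 acts in ribosome assembly. The label of transcription factors therefore fits the set only in part.

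Levels are given as CPM, a gene's reads scaled to 1 common library size for all dogs by TMM. CPM is not divided by transcript length, so levels were compared between dogs and not between genes. Library totals ran from 8558743 to 26284315 reads. Luteolysis replicate 1 stood apart: its mean rank correlation with the other dogs of its group was 0.92, against 0.944 to 0.983 in the other 14 dogs, and counts are therefore also given without it. A difference was called when its p-value was below 0.01 and its adjusted p-value below 0.1 in edgeR's quasi-likelihood test across all genes. Overlap between the dogs of groups is described for single members, and the share of all genes without overlap is not given.

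The lists had selected the members on the groups of 4 contrasts, so the profile over groups is a description. The group with the highest mean log2 CPM was luteal regression for 31 members (55.4%), luteolysis for 11 (19.6%), mid-gestation for 7 and antigestagen for 7. Over all genes of the fit, luteal regression was highest for 32.9% and luteolysis for 30.6%, and over all identifiers of the lists the shares were 19.2% and 48.8%. The lowest group was luteolysis for 35 members (62.5%), against 26.1% of all genes and 34.4% of the listed identifiers. It was mid-gestation for 11 members, antigestagen for 7 and luteal regression for 3.

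**Figure D1:**
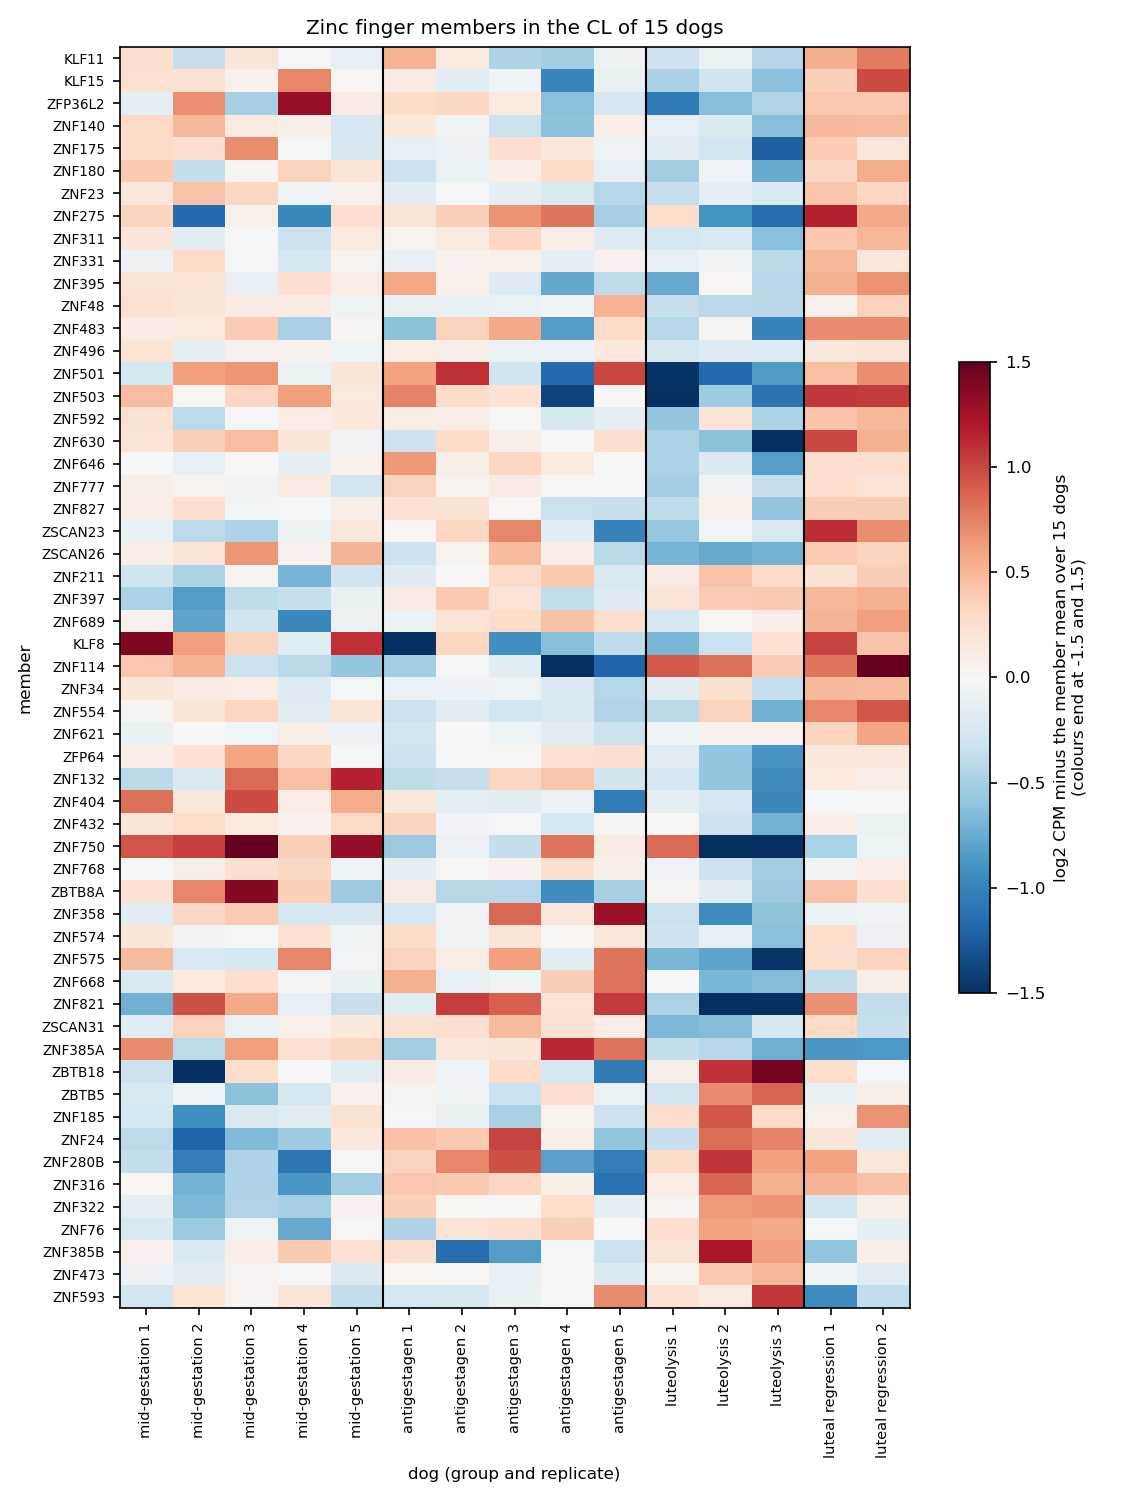
Each row is 1 of the 56 members, each column 1 of the 15 dogs, and the colour gives log2 CPM minus the member's mean over the 15 dogs (red higher, blue lower, colours ending at -1.5 and 1.5). Rows are ordered by the group of highest and then of lowest mean. The upper block of 31 members is red in both luteal regression dogs, and the lowest block of 11 is red in luteolysis replicates 2 and 3.

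The same members are described dog by dog, and since the lists had selected them on these dogs, this is no separate support. The median over the members of log2 CPM, each centred on its mean over the 15 dogs, was 0.35 and 0.33 in the 2 luteal regression dogs, and 44 members lay above their own mean in each of them. In luteolysis the medians were -0.26, -0.13 and -0.46, with 17, 22 and 17 members above their mean. Mid-gestation dogs lay between -0.01 and 0.10 and antigestagen dogs between -0.12 and 0.07. The median over all genes of the fit stayed between -0.03 and 0.06 in every dog. The 3 luteolysis dogs thus lay below, and both luteal regression dogs above, the other 10 dogs. Luteolysis replicate 2, at -0.13, was close to the lowest antigestagen dog, at -0.12. The order of the group medians was the same with DESeq2's size factors.

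Except for cycling cells, sums of cell type markers differed between luteolysis and luteal regression. Their identifiers come from the same DEG lists, so that their differences are selected too. The summed CPM of 10 leucocyte genes was 1240 to 2460 in luteolysis and 687 to 833 in luteal regression, with 692 to 1730 at mid-gestation and 1120 to 1610 after antigestagen. CD74 made up most of this sum, with a mean of 1640 CPM in luteolysis, while the T cell genes CD2 and CD3E went the other way, with 2.8 and 0.585 CPM in luteolysis, 5.39 and 1.03 CPM in luteal regression and 8.75 and 2 CPM at mid-gestation. The sum of 4 endothelial genes was 414 to 917 in luteolysis and 264 to 273 in luteal regression, where mid-gestation gave 227 to 597 and antigestagen 425 to 844. That of 5 stromal genes was 1910 to 4580 in luteolysis and 5370 to 7040 in luteal regression. Mid-gestation gave 3690 to 14900 and antigestagen 3380 to 9220, which overlapped with luteolysis and with luteal regression. The sum of 5 genes of cycling cells was 43 to 100 in luteolysis and 37.9 to 60.8 in luteal regression, with an overlap. It was 28.5 to 96.1 at mid-gestation and 7.04 to 34.2 after antigestagen. That of 5 luteal steroidogenic genes was 443 to 594 in luteolysis, 881 to 1140 in luteal regression, 387 to 577 after antigestagen and 546 to 1140 at mid-gestation. CYP17A1 carried this sum, with a mean of 236 CPM in luteolysis and 723 CPM in luteal regression, whereas PRLR had 84.3 and 84.7 CPM and HSD3B7 118 and 39 CPM, the opposite direction. No marker with an identifier had a group mean of 0, and STAR and CYP11A1, the defining steroidogenic genes, were not among those identifiers. The part of tissue makeup in the members' levels was not tested.

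The contrast luteal regression over luteolysis sets the end of the non-pregnant luteal phase against the CL loss before birth. Its list named 28 members, and by the sign of edgeR's ratio 27 of them were higher in luteal regression. In edgeR 6 of 56 members (10.7%) were called, all higher in luteal regression. Of all genes tested 5.11% were called, and of all identifiers of the lists 23.2%. The median log2 ratio of the members was 0.56 and that of all genes -0.05. Since the lists used this contrast, nothing is read from these values. Called were ZNF503, ZNF630, KLF15, ZSCAN26, KLF11 and ZNF311. The count was 15 without luteolysis replicate 1 (10.7% of all genes), 13 without luteolysis replicate 2 (7.05%), and 0 without luteolysis replicate 3 (0.0338%) or without luteal regression replicate 1 (0%) or 2 (0.00674%), so that the calls over all genes moved with it.

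ZNF503 (ENSCAFG00000015427) encodes a transcriptional repressor known from the developing striatum. Its level was 32.4 and 32.3 CPM in the luteal regression dogs, 4.2, 10.7 and 7.13 CPM in the luteolysis dogs, 21.4, 15.8, 19.4, 23.9 and 17.1 CPM in the mid-gestation dogs and 26.1, 18.8, 18, 5.86 and 15.4 CPM in the antigestagen dogs. Both luteal regression dogs lay above all other dogs, and the luteolysis dogs lay below all mid-gestation dogs but overlapped with 1 antigestagen dog. The log2 ratio was 2.13 ± 0.45 (SE) for luteal regression over luteolysis and 1.40 ± 0.38 for mid-gestation over luteolysis.

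ZNF630 (ENSCAFG00000031525) measured 20.3 and 14.6 CPM in luteal regression, 7.21, 6.56 and 2.67 CPM in luteolysis, 11.5, 12.9, 13.9, 11.4 and 9.74 CPM at mid-gestation and 8.11, 12.3, 10.7, 9.94 and 11.9 CPM after antigestagen. The luteolysis dogs did not overlap with any other group, and the luteal regression dogs were the highest of all. The log2 ratio was 1.67 ± 0.34 for luteal regression over luteolysis, 1.12 ± 0.29 for mid-gestation over luteolysis and -0.95 ± 0.29 for luteolysis over antigestagen, and ZNF630 was the single member called in all 3.

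Among the Krüppel-like factors, KLF15, a regulator of glucose and amino acid metabolism, measured 21.2 and 32.5 CPM in luteal regression and 11.8, 13.4 and 10.7 CPM in luteolysis. At mid-gestation it measured 19.3, 19.1, 17.2, 27.6 and 16.9 CPM and after antigestagen 18, 14.6, 15.8, 8.28 and 15.2 CPM. Luteolysis lay below both luteal regression and mid-gestation without overlap, with a log2 ratio of 1.16 ± 0.30 for luteal regression over luteolysis. KLF11, a factor induced by TGF-beta, reached 84.2 and 98.4 CPM in luteal regression, above all other dogs, and 46.1, 53.6 and 42.3 CPM in luteolysis (log2 ratio 0.95 ± 0.27). At mid-gestation KLF11 ranged from 45.2 to 68.4 CPM and after antigestagen from 40 to 82.5 CPM, so that luteolysis overlapped with both.

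The remaining called pair were ZSCAN26, with a log2 ratio of 1.11 ± 0.31, and ZNF311, with 0.82 ± 0.24. ZNF311 measured 12.4 and 13.2 CPM in luteal regression, 7.81, 7.95 and 6.03 CPM in luteolysis and 7.46 to 11.6 CPM in the other groups. Members of the list that were not called were ZNF331, an imprinted gene in humans, with 0.54 ± 0.19, ZNF395, a hypoxia-induced gene, with 0.95 ± 0.31, ZSCAN23 with 1.21 ± 0.43 and ZNF48 with 0.61 ± 0.21. ZNF501 had the largest ratio, 2.33 ± 0.80, but at most 0.718 CPM in luteal regression and 0.0751, 0.119 and 0.174 CPM in luteolysis. ZNF593 was the 1 listed member with a lower level in luteal regression, at 4.01 and 6.06 CPM against 9.08, 8.62 and 16.5 CPM in luteolysis (log2 ratio -1.18 ± 0.38, not called). The other listed members had positive ratios and were not called. They were ZFP64, ZNF23, ZNF34, ZNF140, ZNF180, ZNF275, ZNF483, ZNF496, ZNF554, ZNF575, ZNF592, ZNF621, ZNF646, ZNF777, ZNF821 and ZNF827. Ordered by edgeR's p-value, the last member named was ZNF496, with a log2 ratio of 0.40. The first not named was ZFP36L2, with 1.10.

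The contrast mid-gestation over luteolysis compares the working CL of pregnancy with its loss before birth. Its list named 29 members, by the sign of edgeR's ratio 18 higher and 11 lower at mid-gestation. In edgeR 13 of 56 members (23.2%) were called, 7 higher and 6 lower at mid-gestation. Of all genes 8.16% were called, and of all identifiers of the lists 36.2%. The median log2 ratio was 0.40 for the members and -0.02 for all genes. The list used this contrast as well. Higher at mid-gestation were ZNF503, ZNF821, ZNF575, ZFP36L2, ZNF630, ZSCAN26 and ZFP64. Lower were ZBTB18, ZNF316, ZNF322, ZNF76, ZNF185 and ZNF397. The count was 20 without luteolysis replicate 1 (16.5% of all genes), 2 without luteolysis replicate 2 (3.26%) and 0 without luteolysis replicate 3 (0.762%). It was 8 without mid-gestation replicate 2 (6.88%), 8 without mid-gestation replicate 3 (4.99%) and 3 without mid-gestation replicate 4 (4.79%).

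The 3 lists that involve luteolysis had 6 members in common, ZFP64, ZNF503, ZNF575, ZNF630, ZNF821 and ZSCAN26. ZSCAN26 varied little between the luteolysis dogs, with 2.85, 2.73 and 2.84 CPM in luteolysis, 6.16 and 5.95 CPM in luteal regression, 5.04, 5.4, 7.51, 4.91 and 6.76 CPM at mid-gestation and 3.78, 4.87, 6.58, 5.03 and 3.53 CPM after antigestagen. The 3 luteolysis dogs were the lowest of the 15, as they were for ZNF575. ZNF575 measured 2.55, 2.37 and 1.45 CPM in luteolysis and at least 3.47 CPM in every other dog, with a log2 ratio of 1.17 ± 0.34 for mid-gestation over luteolysis and -1.36 ± 0.34 for luteolysis over antigestagen.

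ZFP64, a DNA-binding protein of the classic type, measured 13.6, 10.2 and 8.29 CPM in luteolysis, 16.6, 17.9, 23.2, 19.2 and 15.1 CPM at mid-gestation and 12.5, 15.2, 15.6, 17.9 and 18.2 CPM after antigestagen. Luteolysis and mid-gestation did not overlap (log2 ratio 0.78 ± 0.21), whereas luteolysis and antigestagen overlapped by 1 dog each. ZNF821 spread widely within groups, from 19 to 61.2 CPM at mid-gestation, from 28.2 to 65.1 CPM after antigestagen and from 24.4 to 50.9 CPM in luteal regression. In luteolysis it measured 22.6, 10.9 and 9.74 CPM, below all antigestagen and luteal regression dogs but overlapping with mid-gestation, with a log2 ratio of 1.33 ± 0.43 for mid-gestation over luteolysis.

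**Figure D2:**
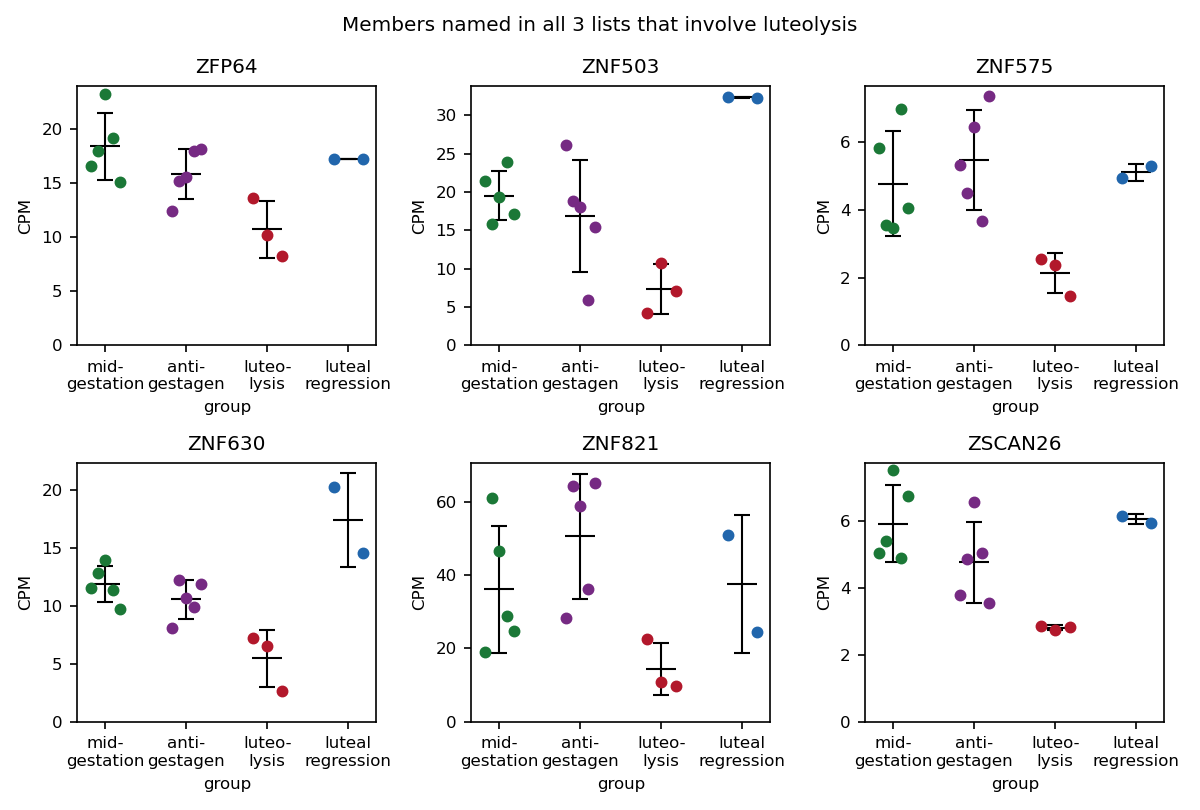
Points are the CPM of single dogs for the 6 members named by all 3 lists that involve luteolysis, by group, and the black bar is the group mean with its SD. In ZNF575, ZNF630 and ZSCAN26 the 3 luteolysis dogs are the lowest of the 15, and ZNF821 shows the widest spread within groups.

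ZFP36L2, the messenger RNA decay factor, was called higher at mid-gestation too. It measured 186, 328, 145, 506 and 222 CPM at mid-gestation, 97.4, 131 and 149 CPM in luteolysis, 248, 253, 226, 133 and 172 CPM after antigestagen and 269 CPM in each luteal regression dog. Mid-gestation and luteolysis overlapped (log2 ratio 1.14 ± 0.35). Further listed members higher at mid-gestation and not called were ZNF23 with 0.42 ± 0.16, ZNF404 with 1.04 ± 0.38, ZNF385A with 0.85 ± 0.34 and ZNF750, an epidermal differentiation factor, with 2.07 ± 0.91. ZNF750 was read at 0 in luteolysis replicate 3 and at 2.25 CPM in luteolysis replicate 1, within the mid-gestation range of 1.57 to 6.06 CPM. KLF15, ZNF48, ZNF132, ZNF175, ZNF432, ZNF768 and ZSCAN31, with ratios of 0.40 to 1.07, had the same direction and were not called. Ordered by edgeR's p-value, ZNF750 was the last member inside this list, and ZNF501, with a ratio of 1.95, the first outside it.

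The 6 members called lower at mid-gestation went the opposite way to most of the set. ZBTB18, a repressor known from neuronal and muscle development, measured 5.14, 2.06, 7.76, 6.42 and 5.72 CPM at mid-gestation and 6.83, 13.8 and 17.6 CPM in luteolysis, overlapping by luteolysis replicate 1 (log2 ratio -1.24 ± 0.39). ZNF316 measured 9.45, 5.6, 6.69, 5.01 and 6.4 CPM at mid-gestation and 9.98, 17 and 13.4 CPM in luteolysis, with no overlap (-1.03 ± 0.31). ZNF397 measured 7.61, 5.91, 8.14, 8.3 and 9.81 CPM at mid-gestation and 12.2, 13.8 and 13.9 CPM in luteolysis, again without overlap (-0.74 ± 0.21). The luteal regression dogs measured 15 and 15.4 CPM for ZNF397, above all luteolysis dogs, 13.2 and 12.6 CPM for ZNF316, within the luteolysis range, and 7.73 and 6.31 CPM for ZBTB18, below luteolysis replicates 2 and 3.

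ZNF76, a paralogue of the promoter-binding factor ZNF143, ranged from 10.8 to 18.6 CPM at mid-gestation and from 21.8 to 27.8 CPM in luteolysis (-0.78 ± 0.21), with 18 and 16.7 CPM in luteal regression, below all luteolysis dogs. ZNF185, the cytoskeletal member, ranged from 10.9 to 24.3 CPM at mid-gestation and from 24.8 to 39.5 CPM in luteolysis (-0.76 ± 0.24). ZNF322 ranged from 9.71 to 16.2 CPM and from 16 to 24.9 CPM (-0.80 ± 0.21). Only ZNF322 overlapped among these 3, which were called in this contrast and named by its list. The listed members ZBTB5, ZNF24, ZNF211, ZNF280B and ZNF473 were not called, with ratios of -0.73, -0.97, -0.62, -1.23 and -0.42. ZNF473 acts in the processing of histone messenger RNAs, and ZNF24 is a repressor of VEGFA.

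**Figure D3:**
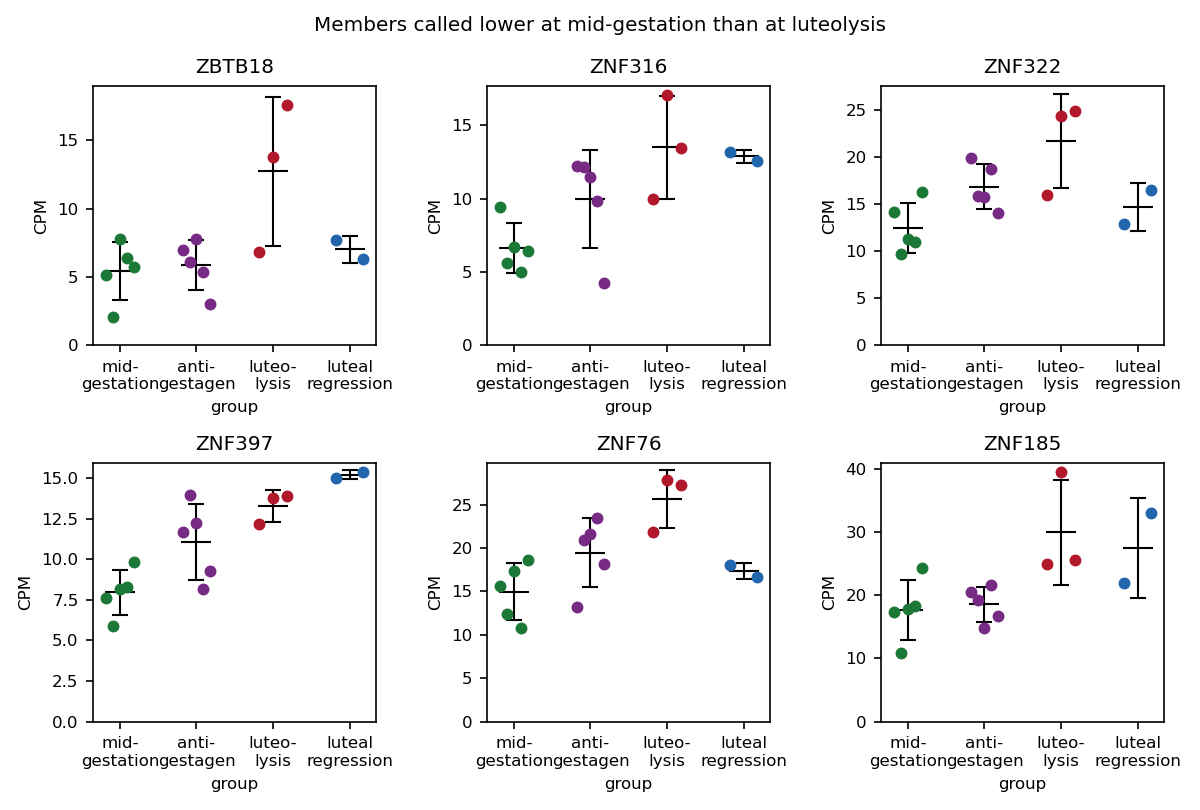
Points are the CPM of single dogs for the 6 members called lower at mid-gestation than in luteolysis, by group, and the black bar is the group mean with its SD. Luteolysis replicate 1 is drawn first of the 3 luteolysis points and is the lowest of them in all 6 panels.

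Luteolysis dogs differed among themselves in these members. Of the 11 members highest in luteolysis, luteolysis replicate 1 was the lowest of its group in 10. Of the 35 members lowest in luteolysis, luteolysis replicate 3 was the lowest of its group in 22, replicate 1 in 10 and replicate 2 in 3.

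The contrast mid-gestation over antigestagen shows the CL after the progesterone receptor was blocked. Its list named 5 members. In edgeR the ratios of KLF8, ZBTB8A, ZNF23 and ZNF404 were higher and that of ZNF689 lower at mid-gestation. That list rests on the study's unadjusted p-value, so being named there does not mean that its adjusted threshold was passed. In edgeR 0 of 56 members were called, beside 0% of all genes, and DESeq2 and limma-voom also called 0 members. The unadjusted p-value was below 0.05 for 11 members (19.6%), against 6.81% of all genes and 19.9% of all identifiers of the lists. The members were thus close to the other listed genes, and the lists had selected 5 of them on this contrast. The median log2 ratio was 0.01 for the members and -0.02 for all genes.

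ZBTB8A measured 23.1, 33, 51.7, 25.5 and 13.6 CPM at mid-gestation and 21.8, 14.9, 14.8, 10.4 and 14 CPM after antigestagen (log2 ratio 0.95 ± 0.29). ZNF23 measured 26.2, 31.4, 28.9, 22.3 and 24.2 CPM at mid-gestation and 20.8, 22.8, 21.1, 19.9 and 17.3 CPM after antigestagen (0.38 ± 0.13). ZNF689 measured 4.83, 2.62, 3.72, 2.3 and 4.31 CPM and 4.34, 5.33, 5.58, 6.27 and 5.55 CPM (-0.61 ± 0.23). In all 3 the groups overlapped. KLF8, a repressor of E-cadherin, was low throughout, at 0.365 to 1.31 CPM at mid-gestation and 0 to 0.564 CPM after antigestagen (1.56 ± 0.58), and ZNF404 had a ratio of 0.81 ± 0.32. Ordered by edgeR's p-value, ZNF404 was the last member named and ZNF24, with -0.83 ± 0.31, the first not named.

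The contrast luteolysis over antigestagen sets natural against induced loss of the pregnant CL. Its list named 16 members, by the sign of edgeR's ratio 4 higher and 12 lower in luteolysis. In edgeR 7 of 54 members tested (13%) were called, 1 higher and 6 lower in luteolysis. Of all genes 4.75% were called, and of all identifiers of the lists 21.1%. The median log2 ratio was -0.27 for the members and 0.02 for all genes. KLF8 and ZNF501 had too few reads in these groups to be tested. The list used this contrast too. Lower in luteolysis were ZNF821 with -1.82 ± 0.44, ZNF575, ZNF358, ZNF630, ZSCAN31 and ZNF646, and higher was ZNF385B with 1.09 ± 0.30. The count was 15 without luteolysis replicate 1 (14.8% of all genes), 1 without luteolysis replicate 2 (1.6%), 0 without luteolysis replicate 3 (0.0414%), 1 without antigestagen replicate 3 (2.22%) and 4 without antigestagen replicate 5 (3.01%).

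ZSCAN31 measured 9.91, 10.1 and 13.5 CPM in luteolysis and 18.7, 19, 22.2, 18.7 and 17.3 CPM after antigestagen (-0.78 ± 0.20). ZNF646 measured 10.3, 12.3 and 8 CPM in luteolysis and 22.6, 15.2, 17.7, 15.9 and 14.2 CPM after antigestagen (-0.74 ± 0.20). ZNF358 measured 42, 27.5 and 34.7 CPM in luteolysis and 44.4, 50.9, 96, 59.4 and 128 CPM after antigestagen (-1.13 ± 0.32). None of these 3 overlapped between the groups, but they were called in this contrast and named by its list, so little overlap is a product of the selection. ZNF385B, a relative of ZNF385A, measured 22.5, 45.9 and 29.9 CPM in luteolysis and 23.1, 8.77, 10.9, 19.3 and 15.5 CPM after antigestagen, with an overlap. Ordered by edgeR's p-value, ZNF574 was the last member named, with -0.46, and ZNF48 the first not named, with -0.44. ZNF668 was named and not called with -0.77.

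The difference that put a member on a list was taken without the levels of the remaining 2 groups. The study fitted its experimental groups as 1 factor, however, so all dogs could enter the spread it used. Each list was looked up in the contrast of the remaining 2 groups, again with 1 spread over all 15 dogs. Members with little spread could thus be favoured in both contrasts, which was not tested. In edgeR no listed member was called in any of these 4 contrasts. The 28 members of the luteal regression over luteolysis list had 2 unadjusted p-values below 0.05 in mid-gestation over antigestagen, those of KLF15 and ZNF23, where 6.81% of all genes had one, and a median log2 ratio of 0.06. ZNF23 had also been named by the list of that contrast. DESeq2 called 0 of them beside 0.604% of all genes and limma-voom 0 beside 0.125%. The sign was the same in both contrasts for 19 of 28 members (67.9%), against 67.8% of all identifiers of that list and 55.5% of all genes, so that the members were close to the rest of their list.

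The 5 members of the mid-gestation over antigestagen list were all positive in luteal regression over luteolysis, with a median of 0.60, and 1 p-value was below 0.05, beside 18.8% of all genes. That member was ZNF23 (log2 ratio 0.60 ± 0.19, edgeR adjusted p = 0.108), which DESeq2 and limma-voom called beside 10.6% and 24.7% of all genes. ZNF23 was, however, also named by the luteal regression over luteolysis list, so that this contrast had selected it as well. In the 2 luteal regression dogs ZNF23 measured 31.1 and 29.2 CPM, and in luteolysis 18.3, 21.1 and 20.1 CPM.

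For the 29 members of the mid-gestation over luteolysis list, luteal regression over antigestagen gave 5 unadjusted p-values below 0.05, beside 17.1% of all genes, and edgeR called 0 of 56 members beside 0% of all genes. These were KLF15 (0.90 ± 0.27), ZNF23 (0.56 ± 0.17), ZNF503 (0.94 ± 0.40), ZNF630 (0.72 ± 0.30) and ZNF385A (-1.35 ± 0.41), with edgeR adjusted p-values from 0.184 to 0.257. DESeq2 called KLF15, ZNF23 and ZNF385A (6.31% of all genes), and limma-voom called all 5 and ZNF185 (16.5%). The sign was shared with the list's own contrast in 15 of 29 members (51.7%), against 54.1% of all identifiers of the list and 47.9% of all genes.

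For the 16 members of the luteolysis over antigestagen list, luteal regression over mid-gestation gave 3 unadjusted p-values below 0.05, beside 14.1% of all genes, and edgeR called 0 of 56 members beside 0% of all genes. These were ZNF385A (-1.23 ± 0.41), ZNF114 (1.31 ± 0.46) and ZNF185 (0.63 ± 0.28), with adjusted p-values from 0.319 to 0.340. DESeq2 called ZNF385A (2.26% of all genes), and limma-voom called ZNF114, ZNF385A and ZNF503 (18.7%). The sign was shared in 8 of 16 members, against 58.5% of the list's identifiers and 56.9% of all genes.

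ZNF385A, the RNA-binding member, was the 1 member highest after antigestagen and lowest in luteal regression. It measured 4.3 and 4.36 CPM in luteal regression, 6.23, 5.93 and 4.75 CPM in luteolysis, 13.2, 6.06, 12.4, 9.4 and 9.92 CPM at mid-gestation and 5.56, 8.97, 9.11, 17.6 and 14.1 CPM after antigestagen. The luteal regression dogs were the lowest of the 15. ZNF114 measured 17.8 and 32.5 CPM in luteal regression, 19.3, 18 and 13.2 CPM in luteolysis, 13.5, 14.6, 8.08, 7.62 and 6.76 CPM at mid-gestation and 7, 10, 9.02, 1.95 and 4.34 CPM after antigestagen. Here luteal regression did not overlap with mid-gestation, whereas luteolysis replicate 3 lay below mid-gestation replicates 1 and 2.

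The dogs of a looked-up contrast were not wholly free of the selection. A member named by a further list had been selected there on dogs of this contrast, as was so for ZNF23, KLF15, ZNF503, ZNF630, ZNF185 and ZNF385A, and being named by 1 list alone, as ZNF114 was, is also an outcome of these dogs.

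**Figure D4:**
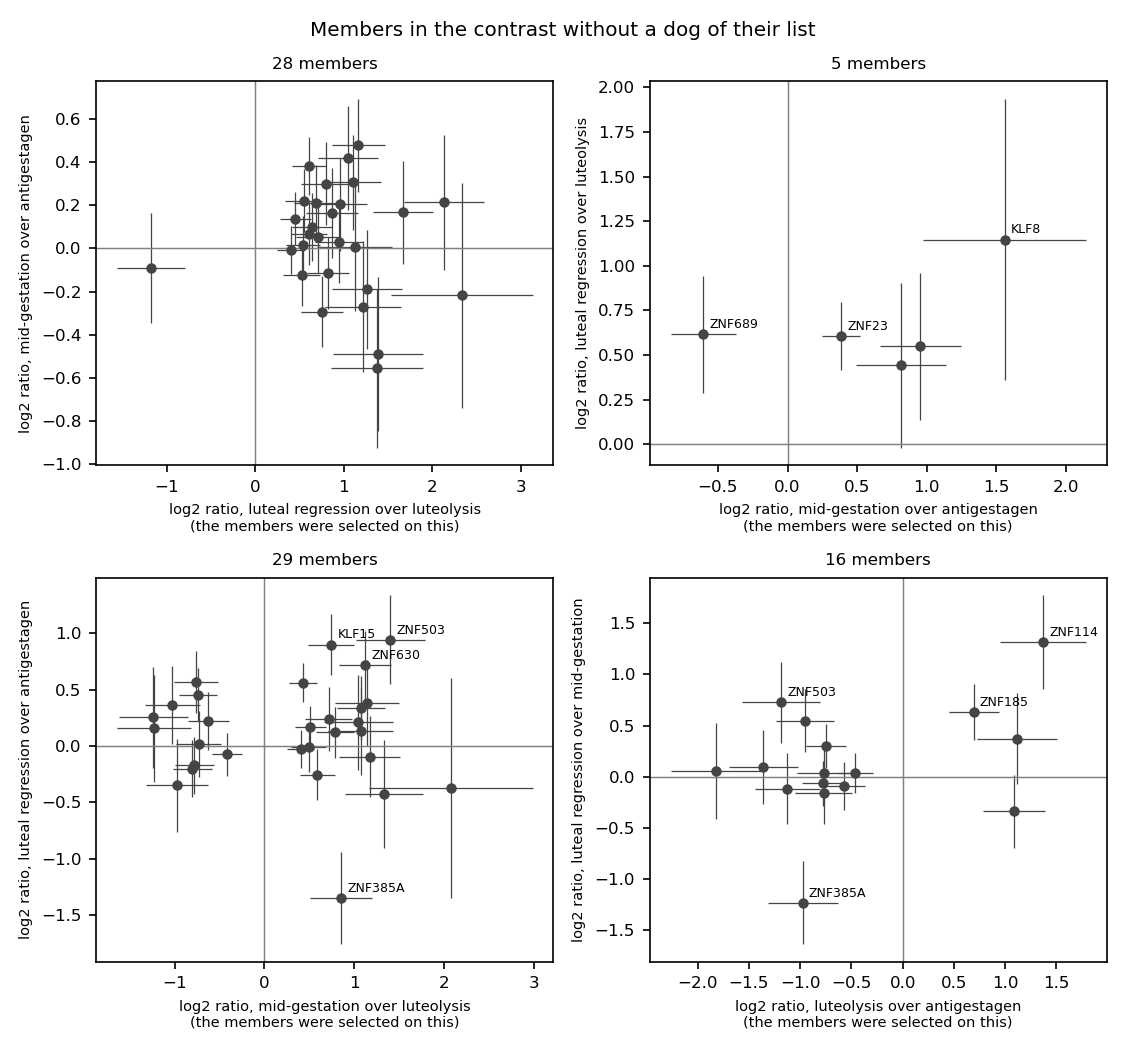
Each panel plots, for the members of 1 list, the log2 ratio in the contrast they were selected on (horizontal axis) against the log2 ratio in the contrast of the other 2 groups, which shares no dog with the first (vertical axis). Points are members, bars are 1 SE of each ratio, and members beyond 0.6 on the vertical axis are named. In the upper left panel the 28 members scatter around 0 on the vertical axis, with a median of 0.06.

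Other zinc finger genes outside these prefixes were looked up from a list of 40, of which 17 had an identifier and were therefore DEG-selected as well. In luteal regression over luteolysis 5 were called (29.4%), 4 higher and 1 lower, beside 23.2% of all identifiers of the lists. In mid-gestation over luteolysis it was 6 (35.3%), 4 higher and 2 lower, beside 36.2%. In luteolysis over antigestagen it was 2 (11.8%), 1 in each direction, beside 21.1%. In mid-gestation over antigestagen it was 0, beside 0%. Over all genes the shares were 5.11, 8.16, 4.75 and 0%. Of 26 corepressor and chromatin genes that work with zinc finger proteins 8 had an identifier, and TRIM28 and SETDB1 were not among them. In luteal regression over luteolysis 3 of them (37.5%) were called, with CHD3 (0.93 ± 0.28) and EHMT2 (0.70 ± 0.20) higher and HDAC3 (-0.80 ± 0.19) lower. In mid-gestation over luteolysis 5 (62.5%) were called, 2 higher and 3 lower. The shares over all identifiers of the lists in these 2 contrasts were 23.2% and 36.2%. In luteolysis over antigestagen 2 (25%) were called, 1 in each direction, beside 21.1%, and in mid-gestation over antigestagen 0, beside 0%.

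Some members are neighbours in the RefSeq gene order. ZNF646 and ZNF668, and likewise ZNF24 and ZNF397, stood next to each other with 0 annotated genes between them, and ZSCAN26 and ZSCAN31 with 1. The library kit does not mark strand, so reads from overlapping neighbours cannot be told apart. In luteolysis over antigestagen ZNF646 and ZNF668 had ratios of -0.74 and -0.77, and in mid-gestation over luteolysis ZNF24 and ZNF397 had -0.97 and -0.74. Zinc finger genes have many near-identical copies, and how reads that match several of them were counted is not given in the sources used here.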

How the data were processed

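The CL of 15 dogs were measured by poly-A RNA-Seq. The authors aligned single-end reads to CanFam3.1 with STAR 2.5.1b, summed them over Ensembl genes with featureCounts and deposited raw counts, unnormalized and unfiltered, in which values from 10000 upward keep 4 significant digits. Symbols came from the study's 4 DEG lists, whose fold changes and p-values were not used. Members and lists were chosen with earlier results of these data known.

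Groups followed titles and condition labels, also for 1 mid-gestation dog whose description gives the antigestagen group number. One more luteal regression dog that the study counts was not analysed here. Counts were fitted in R 4.3.3 with edgeR 4.0.16 (TMM, quasi-likelihood test, all 15 dogs, genes averaging 10 reads or more in 1 group, for a contrast in 1 of its 2 groups, Benjamini-Hochberg adjustment). The study used DESeq2, which with limma-voom was an alternative (DESeq2 1.42.0, limma 3.58.1). The SE is the absolute log2 ratio over the square root of F. Log2 CPM had a prior count of 2. The code was tested on simulated data with changes larger than those of most called members, so smaller changes were not covered.

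Values are given for every KLF, ZBTB, ZFP and ZSCAN member, members of at least 2 lists or of the mid-gestation over antigestagen list, members named in the study's functional lists, the 5 highest and 5 lowest by CPM, and members called on other dogs. Further members with values, such as ZNF311, ZNF316, ZNF322, ZNF397, ZNF76, ZNF385B, ZNF593 and ZNF114, were chosen after their values were seen. Neighbours follow the RefSeq order of UU_Cfam_GSD_1.0, and since that is another build, no coordinates are given. The study reports animal permits from Giessen in Germany and Ankara in Turkey. Whether all dogs of a group were collected at the same place was not given, so place and group cannot be told apart.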

Additional observations from a re-analysis of the deposited data

Results flagged for a closer look

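In the 2 groups of 5 dogs, the highest and lowest dog of each of the 27 members that the naming rule covers was set against the others with Dixon's test. Of 54 member and group combinations 4 had a dog apart at the 95% level (critical value 0.71), where chance gives about 1 in 20. KLF15 measured 27.6 CPM in mid-gestation replicate 4, above the 16.9 to 19.3 CPM of the other mid-gestation dogs. KLF15 also measured 8.28 CPM in antigestagen replicate 4, below the 14.6 to 18 CPM of the others in that group. ZNF404 measured 0.707 CPM in antigestagen replicate 5, below 1.39 to 1.78 CPM. ZNF48 measured 38.5 CPM in the same dog, above 24.8 to 25.8 CPM, which was the widest gap of the 4, at 0.908 of the group's range.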

How the results depend on the processing

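The number of called members moved most with the test, from 6 in edgeR for luteal regression over luteolysis, 13 for mid-gestation over luteolysis and 7 for luteolysis over antigestagen. The counts below keep that order. DESeq2's Wald test called 27, 28 and 16 (10.6, 11.9 and 10.3% of all genes), limma-voom 37, 29 and 23 (24.7, 22 and 19.6%), edgeR on the dogs of the compared groups alone 0, 2 and 0 (0, 2.88 and 0.0207%), and an adjusted p-value below 0.05 gave 2, 4 and 0 (1.33, 3.97 and 1.85%). Without a filter on low counts luteal regression over luteolysis gave 3 (2.74%). With 1 dog left out at a time the counts were 0 to 15, 0 to 20 and 0 to 15, with the lone luteal regression dog assumed to vary like the other groups. DESeq2's size factors gave 7, 15 and 7 (4.86, 8.5 and 4.86%).

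Mid-gestation over antigestagen gave 0 members in every setting and every fit without 1 dog, beside at most 0.604% of all genes. In the contrasts that share no dog with a list, the mid-gestation over antigestagen list had 1 called member in luteal regression over luteolysis with a mean count minimum of 50 (6.44% of all genes), and also with DESeq2 (10.6%) and limma-voom (24.7%). The mid-gestation over luteolysis list had 3 in luteal regression over antigestagen with DESeq2 (6.31%) and 6 with limma-voom (16.5%). The luteolysis over antigestagen list had 1 in luteal regression over mid-gestation with DESeq2 (2.26%), 3 with limma-voom (18.7%) and 3 with the dogs of both groups alone (5.24%). With 1 dog left out, other than a luteal regression dog, these 4 counts were all 0, beside 0 to 10.7% of all genes.

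Of the 26 called ratios none changed sign, 24 lost their call with the compared dogs alone, and over the fits without 1 dog 92 kept and 98 lost it. Members highest in luteal regression numbered 30 to 34 and lowest in luteolysis 33 to 37 with 1 dog left out. No paired analysis was possible because the labels give the groups no shared replicate numbers. With 2 and 3 dogs in a group, and members such as ZNF501 and KLF8 below 1 CPM in many dogs, small differences were not detectable.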
